A study of Mus musculus with 2 samples.

Results

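Imprinted domains, the chromosome segments in which genes are expressed from only the maternal or the paternal copy, were examined for 5-methylcytosine (5mC) signal with and without induction of Zscan4 in mouse embryonic stem (ES) cells. The regions were selected by position alone: a listed region belongs to a domain when it starts within 1 Mb of a point given in Mb of the mm9 genome. The 15 points are Nnat (chromosome 2, 157.4), Gnas (chromosome 2, 174.1), Peg10 (chromosome 6, 4.7), Mest (chromosome 6, 30.7), Snrpn (chromosome 7, 67.1), H19 (chromosome 7, 149.8), Kcnq1 (chromosome 7, 150.5), Rasgrf1 (chromosome 9, 89.8), Plagl1 (chromosome 10, 12.8), Grb10 (chromosome 11, 11.9), Zrsr1 (chromosome 11, 22.9), Meg3 (chromosome 12, 110.8), Peg13 (chromosome 15, 72.6), Igf2r (chromosome 17, 12.9) and Impact (chromosome 18, 13.1). They took in 349 of the 23946 regions of the deposited table (1.46%), of which 85 started within 200 kb of a point, called cores here, and 264 lay in the flanks beyond. The points carry 1 decimal in Mb, so distances are to a rounded position and not to a gene's start. The windows of H19 and Kcnq1 overlap, and the 19 regions in both were given to the nearer point.

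The cells are tet-Zscan4c ES cells of the MC1 line, from the 129S6/SvEvTac strain, grown on gelatin without feeders. The Zscan4 proteins, zinc-finger factors with a SCAN domain, are made in the 2-cell embryo and appear from time to time in a minority of ES cells. The Zscan4-Flag transgene was repressed with 1.5 µg/ml doxycycline in 1 library and induced by omitting the drug in the other. Methylated DNA immunoprecipitation sequencing (MeDIP-seq), in which an antibody enriches sheared, denatured DNA that holds 5mC, gave 1 library for each condition. Every difference below is therefore between 2 libraries, with no replicate check, and drug and transgene cannot be told apart.

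Imprinted expression rests on differentially methylated regions, stretches whose methylation is laid down in the egg or in the sperm. That methylation is then kept on the same parental copy through the genome-wide demethylation of the early embryo. The KRAB zinc-finger protein ZFP57, together with the co-repressor KAP1, is known for protecting these marks in ES cells. Of the domains studied, 12 are known to carry the egg's (maternal) mark at their germline region, and 3 (H19, Meg3 and Rasgrf1) the sperm's (paternal) mark. The table gives no gene names and no genome of its build was used here, so whether a region is the differentially methylated region itself, or exonic, intronic or intergenic, was not determined.

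Promoters of 5 genes from these domains are printed as sequence context, and whether they carry the germline marks was not determined. They were taken for domains with a region of 20 or more counts within 50 kb of the point, as the annotated start with the most CpG, with 250 bases before and 50 after it. They come from RefSeq on assembly GRCm38.p6, which is not the build of the counts, so they were not overlaid with the regions. Of the 15 domain names 10 were in that set; Kcnq1ot1, the long non-coding RNA antisense to Kcnq1, stands for its domain, and Peg13 and Impact, which also meet this rule, are not shown. The promoters lie at chr2:174329756-174330055 (plus strand, Gnas), chr6:30737800-30738099 (plus, Mest), chr7:143296498-143296797 (minus, Kcnq1ot1), chr11:22971755-22972054 (plus, Zrsr1) and chr12:109540746-109541045 (plus, Meg3). Each is printed as the set gives it, and capitals mark CpG, the dinucleotide that is methylated in mammals.
Gnas promoter: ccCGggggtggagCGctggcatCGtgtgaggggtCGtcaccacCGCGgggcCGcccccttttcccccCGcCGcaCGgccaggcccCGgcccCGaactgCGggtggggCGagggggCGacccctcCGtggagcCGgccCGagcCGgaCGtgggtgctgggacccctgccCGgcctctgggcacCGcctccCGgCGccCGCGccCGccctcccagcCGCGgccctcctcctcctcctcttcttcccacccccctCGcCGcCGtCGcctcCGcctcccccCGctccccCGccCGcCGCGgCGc
Mest promoter: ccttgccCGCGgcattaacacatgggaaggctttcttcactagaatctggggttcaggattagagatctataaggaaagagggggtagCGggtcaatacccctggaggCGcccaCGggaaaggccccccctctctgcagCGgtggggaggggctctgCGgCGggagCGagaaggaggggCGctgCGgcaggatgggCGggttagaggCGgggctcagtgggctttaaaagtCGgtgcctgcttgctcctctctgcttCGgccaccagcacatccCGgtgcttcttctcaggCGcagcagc
Kcnq1ot1 promoter: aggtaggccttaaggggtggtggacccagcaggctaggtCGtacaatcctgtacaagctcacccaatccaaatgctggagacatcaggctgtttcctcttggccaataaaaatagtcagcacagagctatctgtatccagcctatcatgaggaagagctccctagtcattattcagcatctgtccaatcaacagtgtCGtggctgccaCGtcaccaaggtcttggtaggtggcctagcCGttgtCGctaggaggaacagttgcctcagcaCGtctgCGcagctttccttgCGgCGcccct
Zrsr1 promoter: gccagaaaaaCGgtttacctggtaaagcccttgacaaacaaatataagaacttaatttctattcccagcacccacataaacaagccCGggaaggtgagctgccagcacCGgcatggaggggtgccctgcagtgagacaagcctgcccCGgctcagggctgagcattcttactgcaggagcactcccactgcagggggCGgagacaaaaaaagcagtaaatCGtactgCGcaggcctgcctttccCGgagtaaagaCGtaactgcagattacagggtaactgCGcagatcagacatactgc
Meg3 promoter: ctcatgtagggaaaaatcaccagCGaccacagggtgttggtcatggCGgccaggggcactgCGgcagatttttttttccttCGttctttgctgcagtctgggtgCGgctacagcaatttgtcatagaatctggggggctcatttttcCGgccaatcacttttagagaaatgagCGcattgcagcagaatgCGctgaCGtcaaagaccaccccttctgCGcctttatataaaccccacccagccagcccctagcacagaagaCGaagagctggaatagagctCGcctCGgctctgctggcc
The 300 bases hold 40 CpG at Gnas, 17 at Mest, 13 at Meg3, 10 at Zrsr1 and 9 at Kcnq1ot1. The median over all 32851 promoters of the set is 7, with quartiles of 3 and 20. No choice by CpG was made for that median, whereas each of the 5 was its gene's start with the most CpG. The comparison therefore cannot show that these promoters are rich in CpG. The letters TGCCGC, known as the sequence ZFP57 recognises when its CpG is methylated, were searched on both strands. They were found at 2 positions in the Mest and at 1 in the Meg3 promoter and not in the other 3 windows. Of all promoters 11.6% hold them. The letters include a CpG and the 5 starts were chosen by CpG, so an excess cannot be read from this either.

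The table as a whole is shallow. Over the 23932 regions with an adjusted value, none of the members being among the 14 without, the counts summed to 48713 (induced) and 67082 (repressed). The members held 754 and 1115 of these, 1.55% and 1.66%. Ratios below are induced over repressed after multiplying counts by 1.19 and 0.863, which sets both totals equal. Ratios carry 95% exact Clopper-Pearson intervals and ratios of ratios 95% exact conditional intervals. Both cover counting error only and treat every count as an independent molecule. PCR copies are not independent molecules, and how duplicates were handled is not given, so the intervals may be too narrow.

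Pooled over the domains, the imprinted cores stood out by how much 5mC signal they held, in both libraries. A core region held 8.60 counts on average, both libraries summed, against 4.31 in the flanks and 4.83 in the regions outside the domains. With Zscan4 induced the means were 3.69 in cores and 1.67 in flanks, and with it repressed 4.91 and 2.64. The medians were closer, at 4, 3 and 3, because a few core regions held much of the signal. Of the 85 core regions 11 (12.9%) reached 20 or more counts, against 3 of 264 (1.14%) in the flanks and 2.58% over the whole table. These 11 held 56.2% of all core counts. Not every domain had more counts per region in its core than in its flank. The means were 2.67 and 3.04 at Peg10, 3.0 and 5.4 at H19, and 2.9 and 3.6 at Grb10. In the other domains with a core region the core mean was the higher. Core regions were also longer, with a median of 1341 bp against 1000 bp in the flanks and 1111 bp over the table. Per kb of region they still held 6.12 counts, against 3.35 in the flanks and 3.63 outside. With regions of 20 or more counts set aside, the cores held 3.10 per kb and the flanks 3.19. Listed regions were slightly denser in the cores, with 14.2 per Mb of window against 11.6 in the flanks, and 9.32 per Mb over the span of the whole table.

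**Figure D1:**
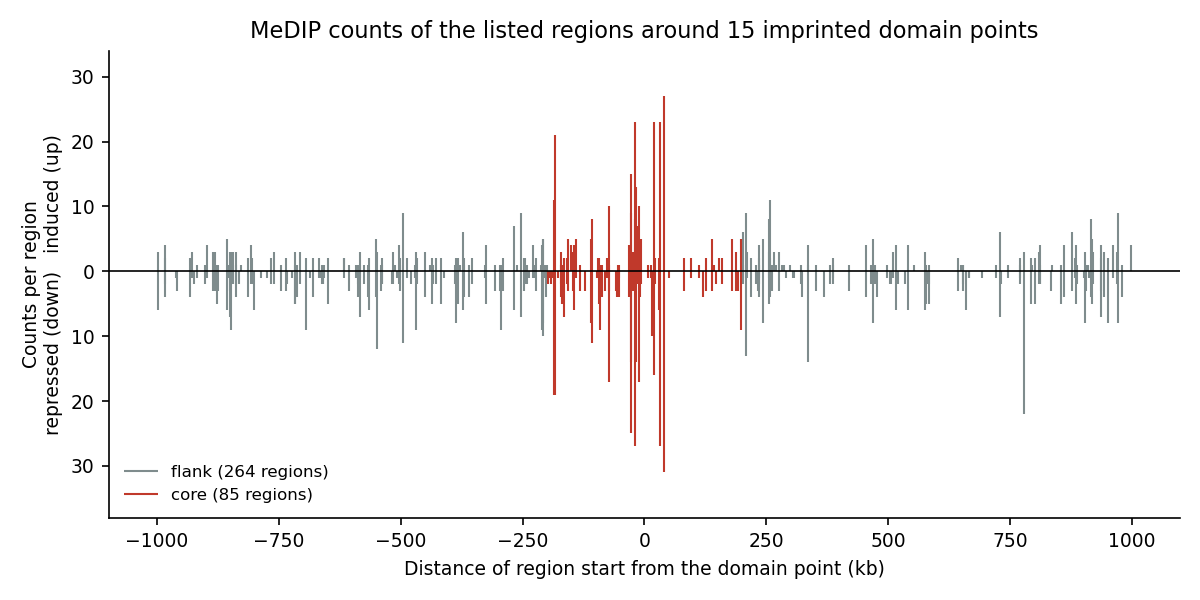
Raw counts of each of the 349 regions against the distance of its start from the nearest domain point, in kb. Lines go up for the induced and down for the repressed library; cores are red and flanks grey. Of the 14 regions with 20 or more counts 11 are in cores, 8 of them within 50 kb of a point; the tallest line in the flanks is R13410 at 779 kb, with 22 repressed counts.

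The strong core regions were concentrated close to the points. In 8 domains the nearest listed region started within 20 kb of the point, at Impact within 0.841 kb, though without a count there. Within 50 kb, 8 of 26 regions (30.8%) had 20 or more counts, and the mean was 15.4 counts per region. Between 50 and 100 kb the mean was 4.45, between 100 and 200 kb it was 6.18, and in the 4 flank bins it ranged from 3.35 to 4.85. Of the 15 domains 8 had a core region of this size: 7 of the 12 with maternal germline methylation and 1 of the 3 with paternal methylation. The 8 domains are Nnat, Gnas, Mest, Kcnq1, Zrsr1, Peg13, Impact and Meg3.

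The strongest of these regions gave similar counts in both libraries. Peg13 is a non-coding RNA gene expressed from the paternal copy. Its only core region, R07796 on chromosome 15 (72640139 to 72641186), 40.1 kb from the point, gave 27 counts with Zscan4 induced and 31 with it repressed. The scaled ratio was 1.20 (0.689 to 2.08). Kcnq1 encodes a potassium channel, and its domain is silenced by the antisense RNA Kcnq1ot1. Region R20477 on chromosome 7 (150481511 to 150483241), 18.5 kb from the Kcnq1 point, gave 23 and 27 counts, a ratio of 1.17 (0.643 to 2.12). It held 80.6% of the counts of that core. Impact encodes a protein that restrains the translation-control kinase GCN2. Its region R10340 on chromosome 18 (13131373 to 13132373), 31.4 kb from the point, gave the same 23 and 27 counts and thus the same ratio.

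At Zrsr1, a retrogene for a splicing-factor relative inside the Commd1 gene, the strong regions overlap each other. R02949 on chromosome 11 (22872518 to 22873518) gave 15 and 25 counts, a ratio of 0.826 (0.405 to 1.63). R02948 (22871680 to 22872680) gave 9 and 14 counts, a ratio of 0.885 (0.338 to 2.20), and reads in the shared stretch may be counted in both. Mest encodes a hydrolase-like protein made from the paternal copy. Both of its strong regions gave 10 and 17 counts, a ratio of 0.810 (0.331 to 1.87): R17894 on chromosome 6 (30688196 to 30689196), 11.8 kb from the point, and R17892 (30627776 to 30629806), 72.2 kb away. The Zrsr1 and Mest values lay below 1, but all 4 intervals hold 1.

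Meg3 is a maternally expressed long non-coding RNA in the Dlk1 domain. Region R05247 on chromosome 12 (110783526 to 110785291), 16.5 kb from the point, gave 13 and 14 counts, a ratio of 1.28 (0.553 to 2.93). Nnat encodes neuronatin, a small membrane protein. Its strong regions lay far from the point, at R13161 on chromosome 2 (157217214 to 157219083), which gave 21 and 19 (ratio 1.52, 0.779 to 2.99), and at R13160 (157213842 to 157215284), which gave 11 and 19 (ratio 0.797, 0.343 to 1.76). These neighbours, 183 and 186 kb from the point, lay on opposite sides of 1. Gnas encodes the stimulatory G-protein subunit in a domain with several imprinted starts. Region R13405 on chromosome 2 (174119711 to 174121854), 19.7 kb from the point, gave 23 and 16 counts, a ratio of 1.98 (1.00 to 4.01). It was the only one of the 11 whose interval left out 1, and only just: with TMM scaling, which trims extreme regions, or with median-of-ratios scaling, 0 of the 11 did.

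**Figure D2:**
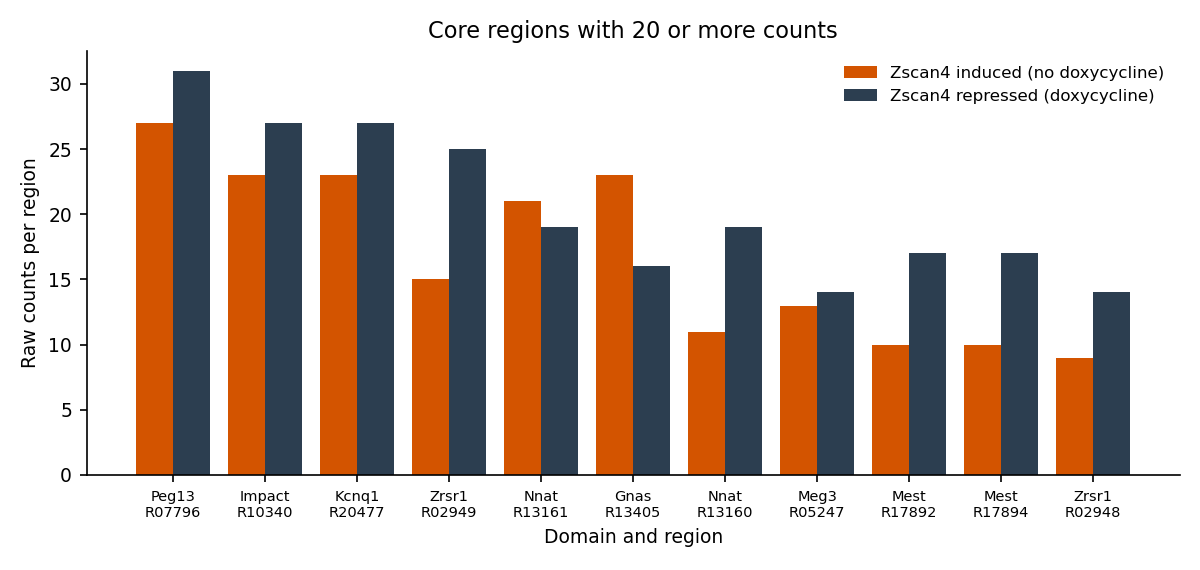
Raw counts in both libraries for the 11 core regions with 20 or more summed counts, by domain and region, ordered by summed count; bars start at 0 and have no replicate error. Raw counts are higher in the repressed library in 9 of the 11, and after scaling to equal totals 6 lie above and 5 below equality, against 3 above and 8 below by median-of-ratios scaling.

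Summed, the 11 strong core regions gave 185 and 226 counts. Their ratio was 1.13 (0.923 to 1.38). The other 606 regions of the table with 20 or more counts gave 1.09 (1.06 to 1.12). The ratio of these ratios was 1.04 (0.846 to 1.27), an interval that allows differences in either direction. The 2 sets share only the minimum of 20 counts, since the core regions averaged 37.4 counts and the others 29.4. Dividing the members at 20 counts was chosen after these values were known.

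The induced over repressed ratio was slightly higher in the cores than in their flanks, and whether the interval of that gap held 1 depended on how core and flank were drawn. The cores gave 314 and 417 counts, a scaled ratio of 1.04 (0.893 to 1.20). This lay on the other side of 1 with other scalings, at 0.941 by TMM and 0.861 (0.741 to 0.999) by median of ratios. The flanks gave 440 and 698 counts, a ratio of 0.868 (0.769 to 0.979). The core-to-flank ratio of ratios, which does not depend on the scaling, was 1.19 (0.984 to 1.45). With a core radius of 300 kb it was 1.38 (1.14 to 1.67), and with overlapping regions left out 1.23 (1.01 to 1.50). Other choices lowered it, to 1.16 (0.939 to 1.44) with a radius of 100 kb and 1.09 (0.855 to 1.38) with flanks ending at 500 kb. Without region R13410 of the Gnas flank it was also 1.16 (0.959 to 1.41). With regions of 20 or more counts left out it was only 1.05 (0.807 to 1.37). With single domains left out it ranged from 1.11 without Gnas to 1.25 without Plagl1, and the interval lay above 1 when Plagl1, Zrsr1 or Igf2r was left out. Cores did not differ from the regions outside the domains beyond counting error, at 1.04 times (0.891 to 1.20). Cores and flanks together were at 0.930 times (0.846 to 1.02), and at 0.900 times (0.815 to 0.994) without Meg3.

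Pooled, the flanks had the lower value, though not at every distance. Against the regions outside the domains, flanks were at 0.867 times (0.767 to 0.979). With a core radius of 300 kb the value was 0.781 (0.678 to 0.899), and with overlapping regions left out 0.848 (0.749 to 0.959). With each of the 15 domains left out in turn it ranged from 0.837 without Meg3 to 0.890 without Gnas, and 13 of the 15 intervals lay below 1. Other choices brought 1 into the interval. Without region R13410 of the Gnas flank it was 0.889 (0.786 to 1.005), and without the Peg10 domain 0.888 (0.783 to 1.01). With regions of 20 or more counts left out it was 0.898 (0.792 to 1.02), and with flanks ending at 500 kb 0.954 (0.792 to 1.15). By distance, the ratio was 1.19 (0.974 to 1.46) within 50 kb and 0.538 (0.325 to 0.866) between 50 and 100 kb, over 20 regions with 25 and 64 counts. It was 1.03 between 100 and 200 kb, 1.00 between 200 and 400 kb, 0.724 (0.556 to 0.939) between 400 and 600 kb, 0.603 (0.428 to 0.840) between 600 and 800 kb, and 1.02 beyond. With any 1 domain left out, the 50 to 100 kb value stayed between 0.449 and 0.580, and the 600 to 800 kb value between 0.560 and 0.673. The bins were chosen with the table known and show no steady trend with distance.

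**Figure D3:**
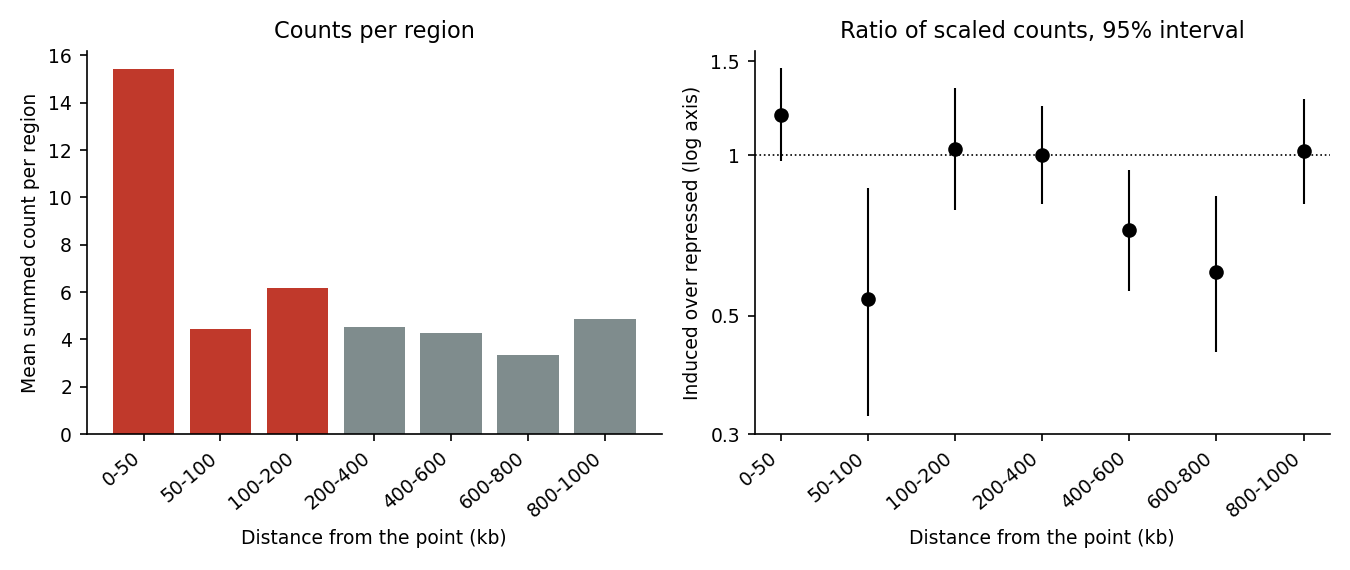
Left, mean summed count per region in bins of distance from the point (kb), red for cores and grey for flanks. Right, induced over repressed ratio of scaled counts on a log axis with 95% exact binomial intervals; the bins at 50 to 100, 400 to 600 and 600 to 800 kb lie below 1.

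Among the domains with maternal germline methylation, Gnas and Peg10 had the clearest gap between core and flank. The Gnas core gave 36 and 30 counts, a ratio of 1.65 (0.990 to 2.78), and its flank 22 and 52, a ratio of 0.583 (0.337 to 0.976). The core-to-flank value was 2.84 (1.34 to 6.04). Part of it came from 1 flank region: R13410 on chromosome 2 (174878723 to 174879855), 779 kb from the point, with 3 and 22 counts. Without it the value was 1.89 (0.838 to 4.31). Peg10 is a retrotransposon-derived gene needed for the placenta. Its core of 6 regions gave only 11 and 5 counts, a ratio of 3.03 (0.970 to 11.1), its flank 21 and 49, and the core-to-flank value was 5.13 (1.40 to 20.9). With a core radius of 100 kb it was 1.13 (0.0898 to 10.5), since 9 of the 11 induced core counts lay farther out. Core and flank could be compared in 13 domains, of which 8 had the higher ratio in the core and 5 in the flank. With the core radius of 200 kb, Gnas and Peg10 had the only intervals without 1. With a radius of 300 kb the intervals at Igf2r, 3.31 (1.09 to 11.2), and Zrsr1, 1.78 (1.02 to 3.12), left out 1 as well.

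Plagl1 and Grb10 had the lowest core ratios. Plagl1 (Zac1) encodes a zinc-finger transcription factor that restrains growth. Its 8 core regions gave 10 and 29 counts, a ratio of 0.475 (0.206 to 1.002). None of them had more induced than repressed raw counts. After scaling, R01521 (2 and 2 counts) and R01524 (1 and 1) lay above 1, both at 1.38, and the others below. Grb10 encodes an adaptor that dampens insulin and growth-factor signalling. Its 12 core regions gave 10 and 25 counts, a ratio of 0.551 (0.236 to 1.19). The Grb10 flank was equally low, at 8 and 21 (ratio 0.525, 0.201 to 1.23), so the whole domain was at 0.539 (0.294 to 0.948). The Plagl1 flank, at 24 and 36 counts, had a ratio of 0.918 (0.524 to 1.58).

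In 5 other maternally marked domains the core intervals held 1, as they did at Gnas, Peg10, Plagl1 and Grb10. The ratio was 1.12 (0.790 to 1.59) at Nnat, 0.995 (0.577 to 1.69) at Kcnq1, 0.909 (0.576 to 1.42) at Impact, 0.852 (0.557 to 1.29) at Zrsr1 and 0.834 (0.474 to 1.44) at Mest. Neighbours in this order do not differ beyond their intervals. Igf2r, the receptor that clears the growth factor IGF2, had 1 core region with 5 and 3 counts, a ratio of 2.30 (0.447 to 14.8). Snrpn, a splicing-factor gene of the Prader-Willi domain, had no listed region in its core and 3 in its flanks, the nearest 587 kb away, with 5 and 3 counts in all.

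Of the domains with paternal germline methylation, the Meg3 core alone held enough counts to compare. Its 5 regions gave 28 and 24 counts, a ratio of 1.61 (0.898 to 2.90), and its flank 54 and 64, a ratio of 1.16 (0.794 to 1.70). H19, the growth-restraining non-coding RNA next to Igf2, had 2 core regions with 2 and 4 counts in sum. Rasgrf1, a Ras exchange factor, had none: its nearest region, R22951 on chromosome 9 (90008636 to 90009636), lay 209 kb from the point and gave 9 and 13 counts. The cores with paternal marks were at 1.47 times those with maternal marks (0.826 to 2.61). Without Meg3, which supplied 52 of the 58 counts, the value was 0.685 (0.0616 to 4.82), so the comparison rests on that domain.

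**Figure D4:**
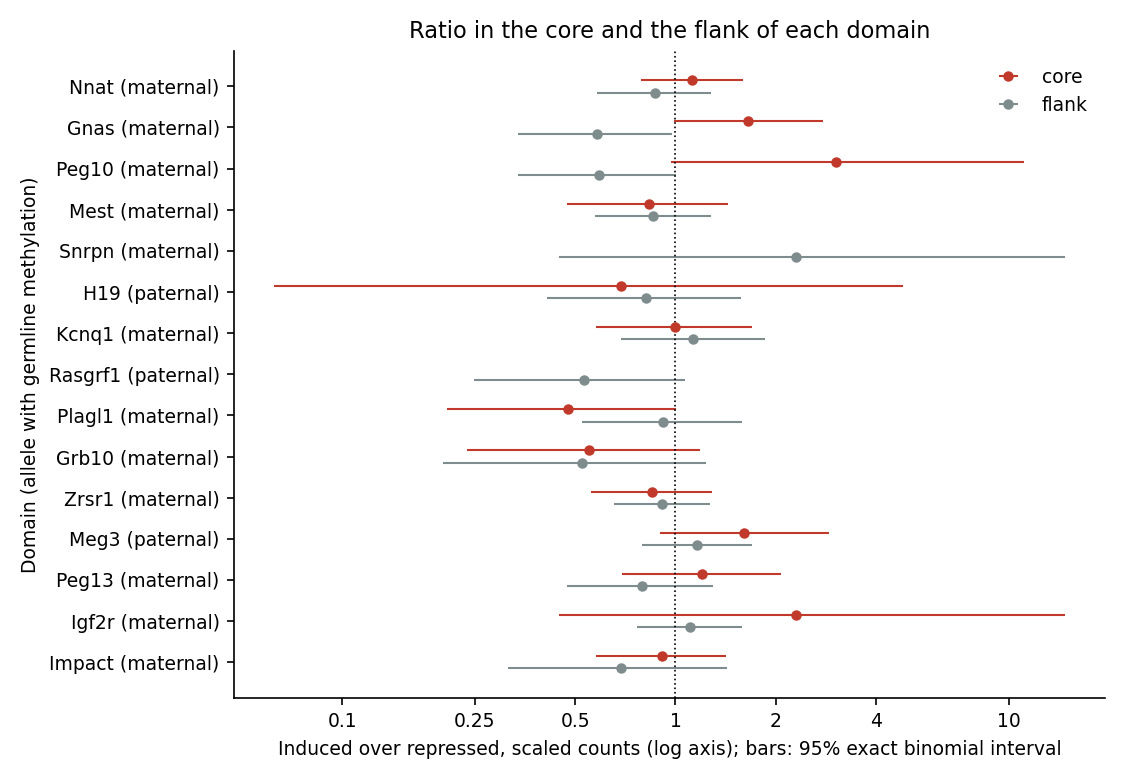
Induced over repressed ratio of scaled counts in the core (red) and flank (grey) of each domain, on a log axis; bars are 95% exact binomial intervals. The Snrpn and Rasgrf1 cores hold no listed region, all 13 core intervals include 1 when scaled to equal totals, and the Gnas flank is the only one that does not.

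No single region of the domains passed the test over the whole table. A 2-fold difference uses the log2 ratio of scaled counts plus a pseudocount of 1. By this rule 64 of 349 members (18.3%) were lower and 50 (14.3%) higher in the induced library, against 15.6% and 15.7% over all regions. Lower by 4-fold or more were 15 members (4.30%) and higher 3 (0.860%), against 2.48% and 1.73% over all regions. Among the 49 members with at least 10 counts, 9 (18.4%) were lower and 3 (6.12%) higher by 2-fold, against 9.34% and 8.47% of the table's regions of that depth. The median log2 ratio was -0.19 in those 49 and -0.02 in the table.

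An exact two-sided binomial test against the overall share of 42.1% called 0 of the 310 members with a count, after Benjamini-Hochberg adjustment over the 21309 regions of the table with a count. The same test called 0.0141% of all regions. At an unadjusted p under 0.05 there were 11 members (3.55%), 5 lower and 6 higher, against 2.21% of the table. This test compares the reads of 2 libraries, not the conditions. The 5 members lowest in log2 ratio with at least 10 counts were R13167, R13410, R10333, R17886 and R22950, and the 5 highest R05246, R02961, R09205, R02960 and R13405.

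The lowest lay close to the Nnat point. Region R13167 on chromosome 2 (157415742 to 157417764), 15.7 kb from it, gave 0 induced and 10 repressed counts (exact binomial p = 0.00682, adjusted p = 1.0). The interval of its ratio reached up to 0.614. With 3 counts as the limit that a count of 0 allows, it would be 2.42-fold lower or more if the 10 repressed counts were exact. They are not, and the interval up to 0.614, which includes their counting error, is the weaker and safer limit. The neighbour R13166 (157392005 to 157393005), 8 kb from the point, went the other way with 5 and 2 counts, a ratio of 3.44 (0.564 to 36.2). Without R13167 the core-to-flank value of all domains was 1.22 (1.01 to 1.49), so that its interval lay above 1. In the Impact core R10333 on chromosome 18 (13007800 to 13009659) gave 1 and 9 counts, as did R17886 in the Mest flank on chromosome 6 (30406656 to 30407656). Their ratio of 0.153 has an interval from 0.00349 to 1.10.

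The highest lay at Meg3 and Zrsr1. Region R05246 on chromosome 12 (110780267 to 110781267), 19.7 kb from the Meg3 point, gave 8 and 2 counts, a ratio of 5.51 (1.10 to 53.2), with an exact binomial p = 0.0216 and adjusted p = 1.0. It lies next to R05247, which gave 13 and 14. In the Zrsr1 flank R02961 on chromosome 11 (23156437 to 23157437) gave 11 and 4 counts, a ratio of 3.79 (1.12 to 16.3). The overlapping R02960 (23155680 to 23156680) gave 8 and 5. The 5 lowest and 5 highest regions were named for the size of their ratios, which their intervals and unadjusted p-values do not allow for, so those values only describe them.

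**Figure D5:**
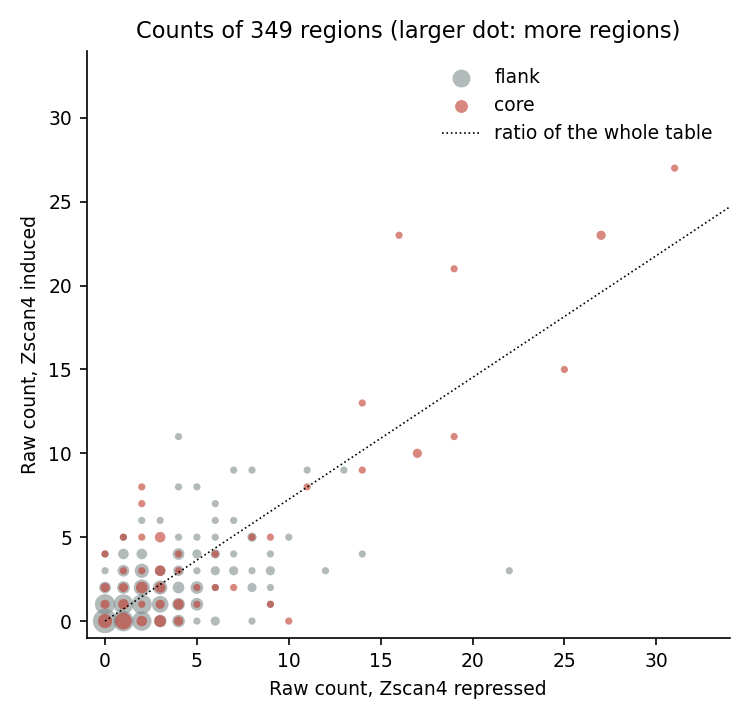
Raw count in the induced against the repressed library for each of the 349 regions, cores red and flanks grey, with dots growing with the number of regions at the same counts; the dotted line is the ratio of the whole table, 0.726. Core regions with many counts spread on both sides of the line, and the grey dot at 22 and 3 is R13410.

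Many members had no count at all in 1 or both of the libraries. In the cores 28 of 85 regions (32.9%) had none with Zscan4 induced and 12 (14.1%) none with it repressed. In the flanks it was 83 (31.4%) and 57 (21.6%) of 264, against 30.3% and 20.8% of all regions. These numbers include regions empty in both libraries: 7 in the cores, 32 in the flanks and 2623 of the 23932 in the table. A count of 0 allows up to 3. Regions at the limits had few counts too: the last inside 200 kb, R13159 at Nnat (199 kb), held 0 and 1, and the nearest outside, R17751 at Peg10 (200.1 kb), 0 and 2. At the 1 Mb limit R13397 of Gnas, inside, held 3 and 6, and R02830 beyond Grb10, outside, 0 and 3.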

How the data were processed

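The deposited table lists regions of mm9 (build per the submitters' processing notes), with raw, whole-number counts deposited by the authors for each library. The adjusted signal deposited by the authors equals the count times 1 factor per library (1.19 induced, 0.863 repressed), to within 0.0491. Which aligner and counter were used, and how duplicates were handled and regions selected, is not given in the sources used here. Fragments were 300 to 1000 bp per the labels' protocols, so a region's signal also draws on neighbouring CpG. Positions are printed as the file gives them.

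Since each group is 1 library, edgeR's test has 0 residual degrees of freedom and could not be fitted. Counts were summed by domain and distance, with exact intervals at 95%, and a fold against 0 counts uses a limit of 3. Named regions are, in each domain, the core region with the most counts and the region nearest to the point, core regions with at least 20 counts, and the 5 lowest and 5 highest log2 ratios at 10 or more counts. Alternatives covered the core radius, the flank limit, overlapping and strong regions, each domain, scaling, pseudocount and fold. The tests and intervals were tried on counts simulated under the binomial model that they assume. That trial does not cover PCR copies or spread between replicates. Members, lists and bins were chosen with earlier results of these data known. Tools were Python 3.11.15, scipy 1.17.1 and, for alternative scalings only, edgeR 4.0.16 and DESeq2 1.42.0 in R 4.3.3.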

Additional observations from a re-analysis of the deposited data

How the results depend on the processing

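No paired analysis was possible because each condition has 1 library. Of 184 alternative values for the pooled, per-domain and count results, 167 stayed within the interval of the reported ratio or, for counts of regions, within 1.5 times the reported count, and 17 did not and are given here; the cause was not tested. By median-of-ratios scaling the core ratio was 0.861 and the flank ratio 0.720, and without scaling 0.753 and 0.630. Ratios of ratios do not depend on scaling, whose log2 factor shifted by -0.14 (TMM), -0.27 and -0.46. Leaving out Meg3 gave 0.685 for paternal against maternal cores. A core radius of 100 kb gave core-to-flank values of 0.667 at Nnat and 1.13 at Peg10, and 300 kb gave 1.78 at Zrsr1. In the following, brackets give the share of members against the share of the table under the same setting. Members lower by 2-fold numbered 112 (32.1% against 28.8%) with a pseudocount of 0.1 and 1 (0.287% against 0.0251%) with 10. They numbered 122 (35.0% against 31.5%) without scaling, and 28 of 134 (20.9% against 17.5%) with at least 5 counts. Lower by 1.5-fold were 122 (35.0% against 31.4%) and by 4-fold 15 (4.30% against 2.48%). Members higher by 2-fold numbered 0 (against 0.0251%) with a pseudocount of 10 and 15 (11.2% against 11.8%) with at least 5 counts. Higher by 4-fold were 3 (0.860% against 1.73%). The exact binomial test called 0 members with total, TMM, median-of-ratios or no scaling, with 11, 9, 10 and 9 at an unadjusted p under 0.05. The results on flanks against the regions outside, those without R13410 or R13167, and the scalings of the 11 strong core regions together were added after seeing the data. With 115795 counts over 23932 regions, most single regions cannot show a 2-fold difference.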
